A study of Homo sapiens with 2 samples.

Results

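The 9 genes described here are *PF4*, *PPBP*, *TUBB1*, *ITGA2B*, *ITGB3*, *GP9*, *GP1BA*, *GP1BB* and *PLEK*, the genes through which megakaryocytes and platelets store chemokines, adhere and form proplatelets. They were chosen by symbol, and make up 9 of the 32738 genes of the count table. The cells were made from the human induced pluripotent stem cell line iPS11, so that all values come from 1 line. CD34+ cells were plated in medium for the endothelial-to-hematopoietic transition (EHT) on uncoated plastic or on plates coated with VCAM1, DLL4 or both, and the nonadherent cells were taken on day 5. For each of the 4 coating conditions, 3 wells were pooled and stained with a hashtag antibody, and all were captured together as 1 library without replicates. The labels and the paper's text do not say which hashtag (0252, 0253, 0254 or 0255) marked which coating, so values are given by hashtag and no coating is named.

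Megakaryocytes arise from CD34+ progenitors, at least in part through precursors that can also give rise to erythroid cells. As they mature they make the fibrinogen receptor αIIbβ3 (*ITGA2B*, *ITGB3*) and the von Willebrand factor receptor GPIb-IX (*GP1BA*, *GP1BB*, *GP9*), fill their α-granules with chemokines such as *PF4* and *PPBP*, and extend proplatelets along microtubules that contain the β1-tubulin *TUBB1*. *PLEK* encodes pleckstrin, a protein kinase C substrate of platelets that is also abundant in other white blood cells. *ITGA2B* is known as an early gene of the lineage, found also on some multipotent progenitors.

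Among 10836 barcodes, 7550 were called for 1 hashtag and passed limits of 36000 unique molecular identifiers (UMIs), 6000 genes and 18% mitochondrial UMIs. They comprised 2136, 1996, 1847 and 1571 cells of hashtags 0252, 0253, 0254 and 0255, with median depths between 17621 and 18769.5 UMIs. Levels are given as CPM, the UMIs of a gene among 1000000 UMIs summed over the cells of a group, with exact Poisson 95% intervals, and shares of cells carry exact Clopper-Pearson 95% intervals. Both intervals cover counting error only and not the spread between cultures, and no p-value was computed. The Poisson intervals also leave out the spread between cells, so they are too narrow where few cells hold most UMIs of a gene. Where shares are compared along stages, each cell was thinned to 5000 UMIs and shallower cells were left out. Ratios were taken after adding 1 CPM to both levels, and were called a difference from 2-fold.

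Start-site sequences are shown for the members whose detection is followed most closely, to show how far their promoters share letters. RefSeq promoters (GRCh38.p14, 250 bases before to 50 bases after the start, printed 5′ to 3′ on the gene's strand) were found for 6 members, *PPBP*, *TUBB1*, *ITGA2B*, *GP9*, *GP1BB* and *PLEK*. Capitals mark the GATA motif (AGATAA or TGATAA) and the ETS motif (AGGAAG) on either strand. They lie at chr4:73988141-73988440 (minus strand) for *PPBP*, chr17:44389600-44389899 (minus) for *ITGA2B*, chr3:129060529-129060828 (plus) for *GP9* and chr20:59019179-59019478 (plus) for *TUBB1*.
PPBP: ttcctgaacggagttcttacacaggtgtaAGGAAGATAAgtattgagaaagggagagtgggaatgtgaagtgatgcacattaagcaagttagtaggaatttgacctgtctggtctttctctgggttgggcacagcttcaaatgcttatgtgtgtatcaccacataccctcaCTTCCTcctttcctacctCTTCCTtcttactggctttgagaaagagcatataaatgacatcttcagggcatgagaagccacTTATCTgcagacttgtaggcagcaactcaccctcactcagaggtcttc
ITGA2B: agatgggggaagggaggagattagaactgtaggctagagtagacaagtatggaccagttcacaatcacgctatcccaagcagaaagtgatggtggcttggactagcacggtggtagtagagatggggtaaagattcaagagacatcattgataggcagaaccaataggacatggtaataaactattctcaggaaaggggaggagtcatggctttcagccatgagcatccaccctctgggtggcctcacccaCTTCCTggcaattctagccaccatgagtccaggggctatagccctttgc
GP9: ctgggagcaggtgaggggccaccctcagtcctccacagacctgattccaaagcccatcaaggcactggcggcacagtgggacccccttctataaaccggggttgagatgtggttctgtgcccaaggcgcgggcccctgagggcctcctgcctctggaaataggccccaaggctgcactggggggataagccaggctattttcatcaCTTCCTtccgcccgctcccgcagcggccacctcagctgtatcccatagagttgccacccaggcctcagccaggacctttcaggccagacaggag
TUBB1: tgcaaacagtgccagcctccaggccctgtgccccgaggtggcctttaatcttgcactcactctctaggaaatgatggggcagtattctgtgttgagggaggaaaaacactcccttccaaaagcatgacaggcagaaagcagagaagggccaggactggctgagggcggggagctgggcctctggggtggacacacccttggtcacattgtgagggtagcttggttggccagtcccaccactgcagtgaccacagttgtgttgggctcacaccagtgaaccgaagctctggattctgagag
The *PPBP* window held 2 GATA and 3 ETS matches, of which 1 of each overlapped. *ITGA2B* and *GP9* held 1 ETS match each, and the windows of *TUBB1*, *GP1BB* and *PLEK* held neither motif. The letters TGATAG, which occur in the *ITGA2B* window, were not part of the GATA motif used and are not marked. Of 35116 promoters of the same length, 16.3% held the GATA motif, 33.6% the ETS motif and 5.61% both, against 1, 3 and 1 of the 6 members.

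The α-granule chemokines came from few cells. *PPBP* (ENSG00000163736, hg19 chromosome 4, 74852156 to 74853907, minus strand), which encodes the precursor of NAP-2, had 7627 UMIs, or 53.7 CPM (52.5 to 54.9). A *PPBP* UMI was found in 8.0% of cells, but 84.8% of its UMIs came from the 80 cells that are called PF4/PPBP-high below, and 1 cell held 524. *PF4* (ENSG00000163737, chromosome 4, 74846528 to 74847744, minus strand), the platelet factor that binds heparin, had 101 UMIs in 40 cells, or 0.711 CPM (0.579 to 0.864). The 9 cells with at least 2 *PF4* UMIs held 70 of these, and the cell with the most held 18 *PF4* and 7 *PPBP* UMIs. Of the 40 cells, 19 also had a *PPBP* UMI, and 2 lay in the macrophage gate defined below. The paralog *PF4V1* had 39 UMIs. The transcripts of *PF4* and *PF4V1* were 87.4% identical over 725 aligned bases, and 10.5% of the 50-base windows of *PF4* also occurred in *PF4V1*, with 0% of those in the last 300 bases. Reads that fall in shared windows cannot be assigned to 1 of the 2 genes.

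The integrin subunits differed in how widely they were found. *ITGA2B* (ENSG00000005961, chromosome 17, 42449548 to 42467017, minus strand) had 10766 UMIs, or 75.8 CPM (74.3 to 77.2), and a UMI in 42.8% of cells. Its partner *ITGB3* (ENSG00000259207, chromosome 17, 45331193 to 45391109, plus strand) had 841 UMIs, or 5.92 CPM (5.52 to 6.33), and a UMI in 5.35% of cells. A second identifier with the symbol *ITGB3* (ENSG00000259753) overlaps the first and had 0 UMIs, so that reads shared by both could have been left out by the counting.

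Of the GPIb-IX receptor, 2 of 3 subunits were measured. *GP9* (ENSG00000169704, chromosome 3, 128779622 to 128781249, plus strand) had 3929 UMIs, or 27.6 CPM (26.8 to 28.5), and a UMI in 18.9% of cells. *GP1BA* (ENSG00000185245, chromosome 17, 4835572 to 4838318, plus strand), the subunit that binds von Willebrand factor, had 1177 UMIs, or 8.28 CPM (7.82 to 8.77), and a UMI in 8.33% of cells. *GP1BB* (ENSG00000203618, chromosome 22, 19711062 to 19712294, plus strand) had 0 UMIs in all 10836 barcodes, also in the PF4/PPBP-high cells. The upper Poisson limit in the cells kept was 0.0260 CPM. In the GENCODE annotation for hg19, 412 of its 959 exonic bases (43.0%) are also exonic in *SEPT5* on the same strand, and *SEPT5* had 91 UMIs. This annotation may differ from the one used for counting. Whether this overlap bears on the count of 0 was not tested, and *GP1BB* is left out of the comparisons that follow.

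*TUBB1* (ENSG00000101162, chromosome 20, 57594484 to 57601709, plus strand) had 1346 UMIs, or 9.47 CPM (8.97 to 9.99), and a UMI in 5.96% of cells. *PLEK* (ENSG00000115956, chromosome 2, 68592414 to 68624585, plus strand) had 18942 UMIs, or 133 CPM (131 to 135), and a UMI in 63.8% of cells. Thus *TUBB1*, *ITGB3*, *GP1BA* and *PPBP* were each found in under 10% of cells, while *PLEK* and *ITGA2B* were detected in a large part of the culture.

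To see which cells carried the members, cells were placed in gates by summed UMIs per 10000 UMIs. The macrophage gate took cells with at least 5 UMIs of *C1QA*, *C1QB* and *C1QC*. The others took at least 20, from azurophil granule genes (*MPO*, *ELANE*, *AZU1*, *PRTN3*), *S100A8* and *S100A9*, 10 globin genes, eosinophil genes (*EPX*, *PRG2*, *PRG3*, *CLC*), mast and basophil genes (*TPSAB1*, *TPSB2*, *CPA3*, *HDC*, *MS4A2*) or stromal genes (*COL1A1*, *COL1A2*, *COL3A1*, *ACTC1*, *LUM*, *DCN*). Such a gate is a range of marker counts and not a cell type. The globin gate alone held 358 cells and no gate held 5171 cells.

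All 8 measured members were highest in the cells of the globin gate. *PPBP* had 900 CPM there against 7.36 CPM in cells without a gate, and *PF4*, its neighbor on chromosome 4, had 9.84 against 0.188 CPM. *ITGA2B* had 367 against 76.3 CPM, *ITGB3* 77.1 against 2.44 CPM, *GP9* 261 against 17.2 CPM, *GP1BA* 83.9 against 5.11 CPM, *TUBB1* 138 against 2.94 CPM and *PLEK* 870 against 93.4 CPM. In all, 88.2% of *PPBP*, 75.8% of *TUBB1*, 67.7% of *ITGB3*, 52.4% of *GP1BA*, 48.8% of *GP9*, 33.6% of *PLEK* and 24.9% of *ITGA2B* UMIs lay in the 367 cells of the globin gate, counting those also in another gate.

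Free RNA can give single UMIs in cells that do not make a transcript, but it was not measured here. The shares in the stromal, macrophage and azurophil granule gates are used as a background instead. A *PPBP* UMI was present in 7.41% of stromal cells (median depth 14341 UMIs), 5.73% of macrophage-gate cells (12608), 5.53% of azurophil-gate cells (20348) and 6.29% of cells without a gate (18865), but in 43.9% of globin-gate cells (19035.5). Outside the globin gate, single *PPBP* UMIs were thus at the level of the background and are not read as expression. *ITGA2B* behaved otherwise, with a UMI in 16.05% of stromal, 7.59% of macrophage-gate and 16.7% of azurophil-gate cells, 50.5% of cells without a gate and 95.5% of globin-gate cells. *PLEK* was found in 21.0% of stromal cells but in 64.6% of macrophage-gate, 71.7% of azurophil-gate, 60.6% of ungated and 89.4% of globin-gate cells, so that it was the member least tied to the globin gate by cell share.

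**Figure D1:**
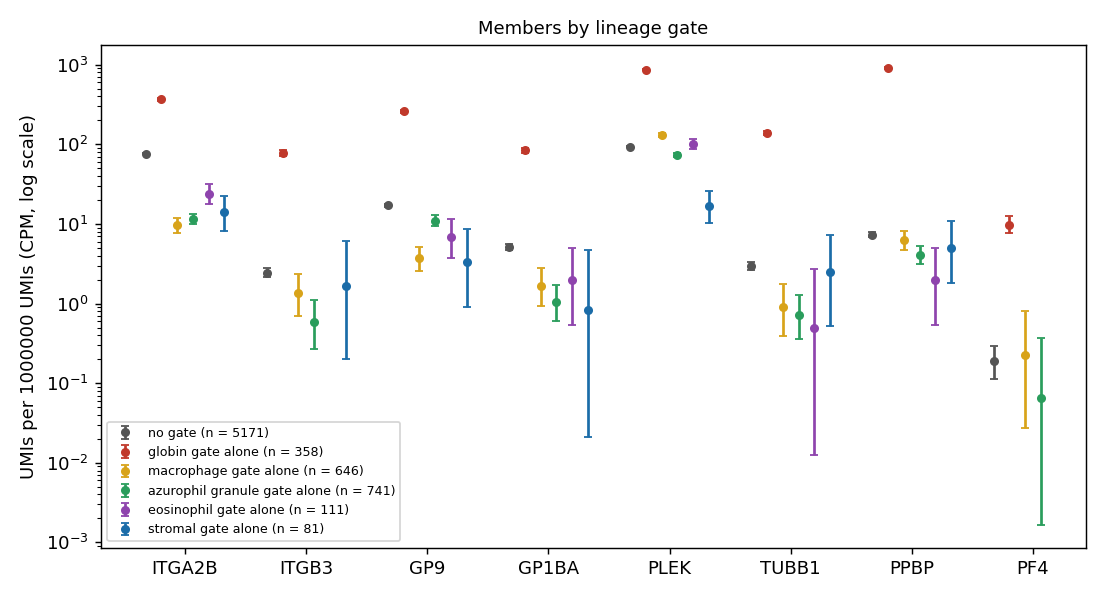
Level of the 8 measured members (x axis) in cells of each lineage gate, as CPM on a log scale (y axis). Points are summed levels, bars exact Poisson 95% intervals, n the number of cells, and groups at 0 are not drawn; the globin gate, in red, is highest for every member, with *PPBP* at 900 CPM.

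Cells with at least 10 UMIs of *PF4* plus *PPBP* per 10000 UMIs are called PF4/PPBP-high. There were 80 of them, or 1.06% of cells (0.841 to 1.32%), and all 80 had *PPBP* while 15 had *PF4*. The lowest cell inside the limit had 10.3 and the highest outside 9.62 UMIs per 10000, with 4 cells between 10 and 12 and 8 cells between 8 and 10. Their median depth was 18190 UMIs, and their median mitochondrial share was 14.2% against 13.1% in all cells kept. Scrublet called 0 of the 80 doublets, but it called only 63 of all 7550 cells kept, so this 0 says little about doublets. Of the 80, 73 lay in the globin gate and 7 in no gate.

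Within the PF4/PPBP-high cells the other members were found almost throughout, although they were not used to choose the cells. *ITGA2B* had a UMI in 97.5% of the 80 cells, with a lowest, median and highest count of 0, 9.5 and 27 UMIs. *GP9* was found in 98.75% with counts of 0, 7 and 25, *PLEK* in 98.75% with 0, 23 and 71, and *TUBB1* in 96.25% with 0, 5 and 14. *GP1BA* was found in 91.25% with 0, 3 and 15 UMIs and *ITGB3* in 85% with 0, 2 and 12. *PPBP* itself ranged from 7 to 524 UMIs with a median of 52.5. A *CD34* UMI was found in 71.25% of these cells, at a median of 2 UMIs. This share lay between 80.4% in the globin gate alone and 69.2% in cells without a gate. It was 17.3% in stromal-gate, 9.91% in macrophage-gate and 40.9% in azurophil-gate cells (median depths given above).

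The order of detection was first taken outside all gates, from CD34-positive cells (at least 2 *CD34* UMIs) without *PF4* or *PPBP* to the highest *PF4* plus *PPBP* stage with at least 30 cells. Since most PF4/PPBP-high cells carry globin, this stage held 322 cells with under 2 UMIs of *PF4* plus *PPBP* per 10000, the range of the background. The share in the 2698 CD34-positive cells was divided by that in this stage. The ratio was 1.03 for *ITGA2B* (0.825 to 1.31), 0.767 for *GP9* (0.488 to 1.25) and 0.766 for *PLEK* (0.613 to 0.973). It was 0.671 for *GP1BA* (0.313 to 1.57), 0.523 for *TUBB1* (0.187 to 1.67) and 0.495 for *ITGB3* (0.163 to 1.75). Only the intervals of *ITGA2B* and *PLEK* lay wholly above 0.5, so *TUBB1* and *ITGB3* cannot be told apart by this limit. By point value and a limit of 0.5, 5 of 6 members counted as early. This stage had 7.92 CPM of *TUBB1* and 29.5 of *GP9* against 2.33 and 19.7 CPM in the CD34-positive cells, well under the levels of PF4/PPBP-high cells given below.

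With the cells of the globin gate kept, as planned among the alternatives, the stages reached 77 PF4/PPBP-high cells and 0 of 6 members counted as early. The CD34-positive cells without *PF4* or *PPBP* then numbered 2828, of which 130 lay in the globin gate. Among them *ITGA2B* was detected in 32.2% (30.4 to 33.9%) at 5000 UMIs, *PLEK* in 26.8% (25.1 to 28.4%), *GP9* in 9.73% (8.66 to 10.9%), *GP1BA* in 3.47% (2.82 to 4.21%), *TUBB1* in 2.16% (1.66 to 2.76%) and *ITGB3* in 2.02% (1.53 to 2.61%). At 10 to under 50 UMIs of *PF4* plus *PPBP* (52 cells) these shares were 84.0, 98.0, 84.0, 58.0, 72.0 and 42.0% in the same order. Set against that stage, the CD34-positive cells had 0.349 of the share of *ITGA2B* and 0.294 of that of *PLEK*, followed by *GP9* at 0.106, *ITGB3* at 0.0549, *GP1BA* at 0.0503 and *TUBB1* at 0.0331. These ratios come from a separate random thinning of the same cells, so they differ from the quotients of the shares just given. The intervals do not cover this difference between draws. The ratios of *ITGA2B* and *PLEK* were the highest. That of *GP9* came next, but its interval (0.0879 to 0.137) overlapped that of *ITGB3* (0.0302 to 0.109). The intervals of *ITGB3*, *GP1BA* (0.0337 to 0.0801) and *TUBB1* (0.0207 to 0.0561) also overlapped, so no order is read among these genes. The 2 ends also differed in globin, since 70 of the 77 PF4/PPBP-high cells lay in the globin gate. Within that gate alone, the 130 CD34-positive cells were set against these 70, a choice made after seeing the data. The ratios were then 0.735 for *ITGA2B*, 0.693 for *PLEK*, 0.488 for *GP9*, 0.309 for *GP1BA*, 0.299 for *TUBB1* and 0.283 for *ITGB3*. The interval of *GP9* (0.356 to 0.680) overlapped all others. For comparison after the same thinning, *GP9* was found in 4.23% of stromal-gate cells (0.880 to 11.9%), so that its share in CD34-positive cells lay within this interval. It was found in 0.949% of macrophage-gate (0.349 to 2.05%) and 4.88% of azurophil-gate cells (3.44 to 6.70%), so these gates did not give 1 common background. In the stromal, macrophage and azurophil granule gates, *ITGA2B* was found in 9.86, 3.32 and 4.21% of cells and *PLEK* in 11.3, 37.03 and 30.7%. For *PLEK* the last 2 shares were above that in CD34-positive cells. Since *PLEK* is also abundant in other white blood cells, they are not read as its background. *GP1BA* was found in 0.791 and 0.407% of macrophage-gate and azurophil-gate cells, *TUBB1* in 0.158 and 0.543% and *ITGB3* in 0.633 and 0.136%. In the stromal gate these 3 genes were at 0, with an upper limit of 5.06%, above their shares in CD34-positive cells.

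In the 50 cells just below the limit, with 2 to under 10 UMIs of *PF4* plus *PPBP*, the other members were found far more often than in cells without *PF4* or *PPBP*. *PLEK* was detected in 98.0% of them (89.4 to 99.9%), *ITGA2B* in 82.0% (68.6 to 91.4%), *GP9* in 70.0% (55.4 to 82.1%), *TUBB1* in 64.0% (49.2 to 77.1%), *ITGB3* in 52.0% (37.4 to 66.3%) and *GP1BA* in 36.0% (22.9 to 50.8%). From there to the cells with 50 or more, *GP9* reached 95.8% (78.9 to 99.9%) and *GP1BA* 58.3% (36.6 to 77.9%), but the intervals overlap for each of these 6 members. *PF4* was detected in 0 of the cells with 2 to under 10 (upper limit 7.11%), in 10.0% of those with 10 to under 50 and in 20.8% (7.13 to 42.2%) of those with 50 or more, and is itself part of the sum.

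**Figure D2:**
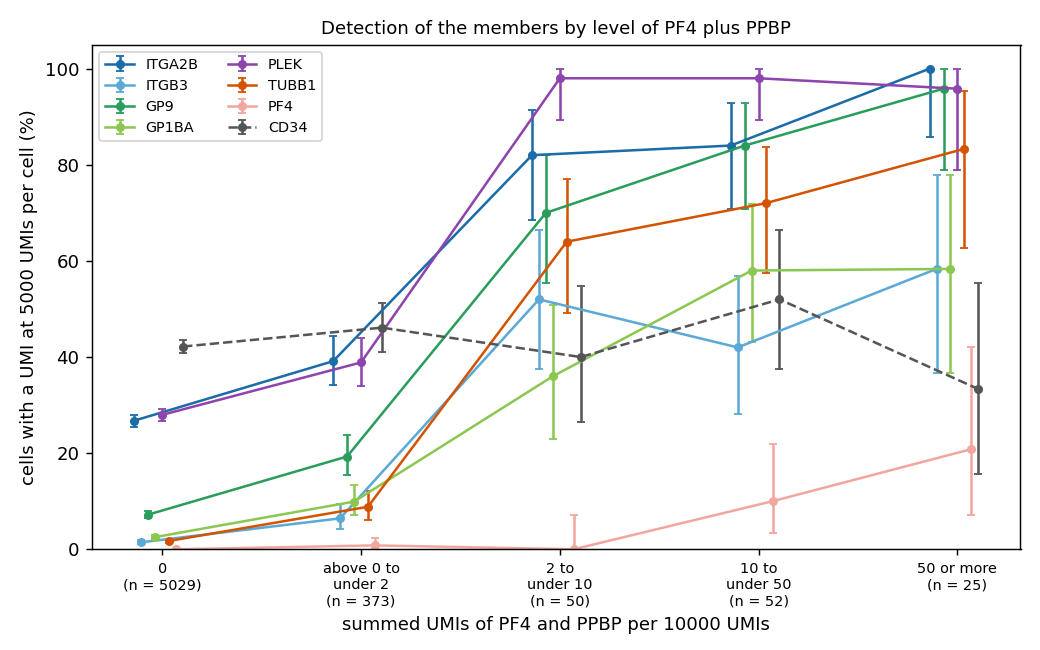
Share of cells with a UMI of each measured member except *PPBP*, which is not drawn, after thinning to 5000 UMIs (y axis, %) by summed *PF4* and *PPBP* UMIs per 10000 (x axis, n cells before thinning), globin-gate cells kept. Points are shares and bars exact 95% intervals, offset sideways for clarity. All members drawn except *PF4* stand well above their first 2 stages from 2 UMIs per 10000 on, *PLEK* at 98.0%, while *CD34* (dashed) changes little.

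As levels, PF4/PPBP-high cells exceeded CD34-positive cells without *PF4* or *PPBP* in 6 of the 6 members outside the rule. Of all 13489 genes with at least 100 UMIs, 7.41% were higher by at least 2-fold in this comparison and 17.7% lower. *TUBB1* had 302 CPM (274 to 332) against 4.96 (4.41 to 5.55), a ratio of 50.9, and *ITGB3* 137 (119 to 158) against 4.41 (3.89 to 4.97), a ratio of 25.6. For *GP1BA* the levels were 185 and 7.26 CPM (ratio 22.5), for *GP9* 493 and 25.2 CPM (18.9), for *PLEK* 1450 and 99.3 CPM (14.5) and for *ITGA2B* 529 and 96.3 CPM (5.45). None of the intervals of the 2 groups overlap. *ITGA2B* thus had the smallest ratio.

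A second axis used none of the members, only 11 other platelet genes (*SDPR*, *GNG11*, *RAB27B*, *TREML1*, *CMTM5*, *CLEC1B*, *MMRN1*, *LTBP1*, *C6orf25*, *GP6* and *SELP*), again with globin-gate cells kept. *ITGA2B* rose in steps along it, from 8.003% of cells at 0 (6.59 to 9.61%) to 14.6, 29.6 and 56.3% in the middle stages and 84.5% (80.4 to 88.0%) at 10 or more UMIs per 10000. The other members changed mainly into the last stage. *GP9* was detected in 2.36, 3.43, 4.57, 15.6 and 65.9% of cells in these 5 stages, and *GP1BA* in 0.762, 0.610, 1.31, 6.37 and 34.9%. *TUBB1* stayed at or under 0.5003% up to the middle stage, had 3.63% (2.51 to 5.06%) at 3 to under 10 and then 43.1% (37.9 to 48.3%), and *ITGB3* followed with 2.86% (1.87 to 4.16%) and 34.9% (30.005 to 39.996%). *PPBP* was at 2.20% at 3 to under 10, within the background, and at 39.2% in the last stage. *PLEK* first fell, from 30.8% (28.3 to 33.4%) at 0 to 21.0% (19.0 to 23.1%) at 1 to under 3, and then reached 88.6% (84.8 to 91.6%), with the cells of the macrophage and neutrophil gates left out. *CD34* was detected in 27.7% of cells at 0 and in 52.0% at 10 or more.

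The first stage at which a member passed 0.5 of its share in the last stage was 3 to under 10 for *ITGA2B* and 10 or more for *PLEK*, *GP9*, *GP1BA*, *TUBB1*, *ITGB3*, *PPBP* and *PF4*. This order was found in each of the 4 hashtags, except that hashtag 0254 had no *PF4* at the last stage after thinning (upper limit 9.49% of 37 cells). The 430 CD34-positive cells without any of the 11 genes had 31.7 CPM of *ITGA2B* (28.0 to 35.7), 61.3 of *PLEK* (56.1 to 66.8), 7.86 of *GP9* (6.09 to 9.99) and 1.53 of *GP1BA* (0.812 to 2.61). They had 0.235 CPM of *TUBB1* (0.0284 to 0.848) and no *ITGB3* UMI, which allows up to 0.433 CPM. In the 372 cells of the last stage these 6 genes had 422, 1095, 308, 98.2, 148 and 88.2 CPM. All 8 measured members were at least 2-fold higher there, against 7.61% of all genes, and 8.72% of all genes were lower.

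**Figure D3:**
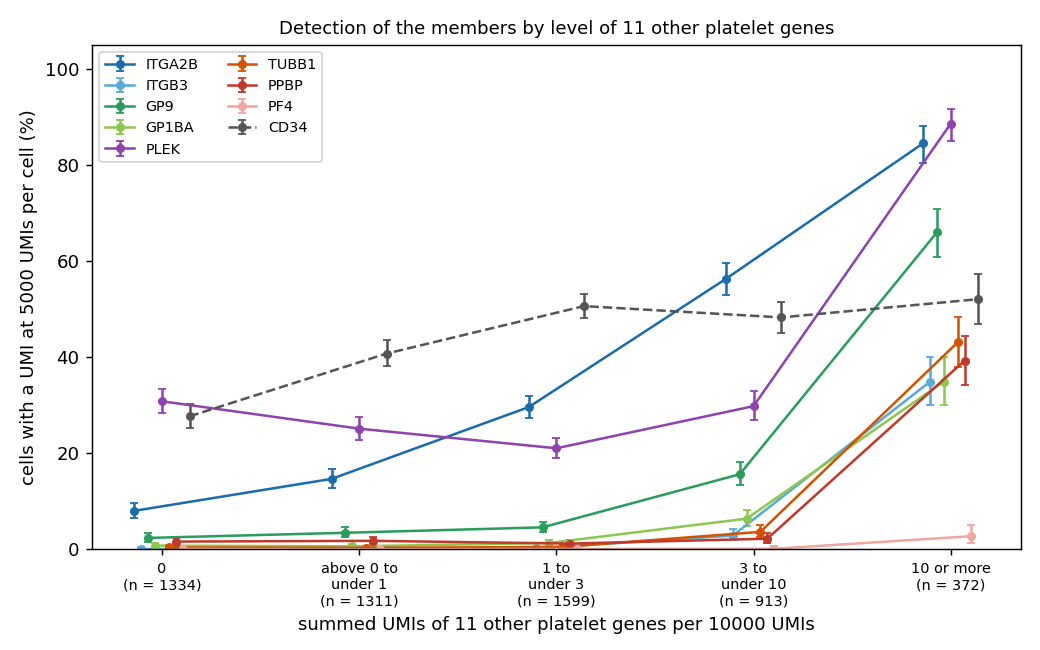
Share of cells with a UMI of each member after thinning to 5000 UMIs (y axis, %) by the summed UMIs per 10000 of 11 other platelet genes (x axis, n cells before thinning), globin-gate cells kept. Points are shares and bars exact 95% intervals, offset sideways for clarity; *ITGA2B* rises at every stage, from 8.003 to 84.5%, whereas the other members rise mainly into the last stage and *PPBP* reaches 39.2%.

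The last stage was divided further, with limits set after the values were seen. Each part was thinned again, so its shares come from another random draw than those of the whole stage and need not recombine to them. At 10 to under 20 (229 cells), 20 to under 40 (125 cells) and 40 or more (18 cells), *ITGA2B* was detected in 77.5, 85.4 and 88.2% and *PLEK* in 82.4, 95.9 and 100% of cells. *PPBP* was detected in 18.5% (13.7 to 24.2%), 75.6% (67.0 to 82.9%) and 100% (80.5 to 100%), and its level went from 95.1 to 1756 and 8015 CPM. *TUBB1* was detected in 26.4% (20.8 to 32.7%), 66.7% (57.6 to 74.9%) and 82.4% (56.6 to 96.2%). *GP9* had 58.1, 76.4 and 94.1%, *GP1BA* 31.3, 47.2 and 70.6%, and *ITGB3* 27.8, 45.5 and 70.6%. Across this range *PPBP* and *TUBB1* thus changed most in share and *ITGA2B* least. The globin gate held 99, 103 and all 18 of these cells. Of the 77 PF4/PPBP-high cells, 76 (98.7%) had 10 or more summed UMIs per 10000 of the 11 genes, but 20.4% of the 372 cells of that stage were PF4/PPBP-high.

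Members were also counted together in single cells. Of 227 cells with *PPBP* after thinning, 68.7% (62.3 to 74.7%) had *ITGA2B*, whereas 9.80% (8.38 to 11.4%) of 1592 cells with *ITGA2B* had *PPBP*. *ITGA2B* was present in 84.2% of 158 cells with *ITGB3*, in 77.4% of 208 cells with *TUBB1* and in 63.6% of 533 cells with *GP9*, and conversely 8.35, 10.1 and 21.3% of cells with *ITGA2B* had these genes. Of 13 cells with *PF4*, 84.6% (54.6 to 98.1%) had *PPBP*, against 4.85% (2.44 to 8.505%) in the other direction. *CD34* was found in 49.7% of cells with *ITGA2B* and in 43.6% of cells with *PPBP*. The difference between the 2 directions of a pair is set by how many cells had each gene. Single *PPBP* UMIs can also include background, so no order is read from these shares.

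Globin and platelet genes were found in the same cells. All of the 77 PF4/PPBP-high cells outside the other gates had a globin UMI, with 1.62, 91.9 and 1556 globin UMIs per 10000 as the lowest, median and highest. *HBG1* and *HBG2*, the fetal γ-globins, had 9909 CPM together, *HBD* 2046, the embryonic *HBE1* 1356 and *HBZ* 303 CPM. Of the 80 PF4/PPBP-high cells 73 had *HBD*, but 9 had *KLF1*, a factor of erythroid cells. Cells of the other gates had been left out, which keeps the genes of those gates low by selection. The 77 cells had 7.75 CPM of the 3 C1Q genes, 8.46 of the 6 stromal genes, 30.3 of the 5 mast and basophil genes, 31.7 of the eosinophil genes and 135 of the azurophil granule genes. The CD34-positive cells without *PF4* or *PPBP*, under the same gates, had 6.11, 7.59, 89.2, 40.7 and 208 CPM.

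Compared with 200 globin-gate cells that had neither *PF4* nor *PPBP*, the 77 PF4/PPBP-high cells had more of all 6 measured members outside the rule, in a comparison where 6.41% of all genes were higher. *TUBB1* had 302 against 56.3 CPM (ratio 5.29), *GP1BA* 185 against 39.5 (4.59), *ITGB3* 137 against 38.5 (3.51), *GP9* 493 against 141 (3.47), *PLEK* 1450 against 494 (2.93) and *ITGA2B* 529 against 257 (2.05). The erythroid genes went the other way, with *KLF1* at 9.87 against 139 CPM and the heme synthesis gene *ALAS2* at 2.82 against 63.3 CPM, while *HBD* was at 2046 against 2506 CPM. Droplets with 2 cells of the same hashtag would also bring globin and platelet UMIs together, and their part in this was not tested. The Scrublet calls, which were too few to decide it, the depth and the erythroid genes are given above.

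**Figure D4:**
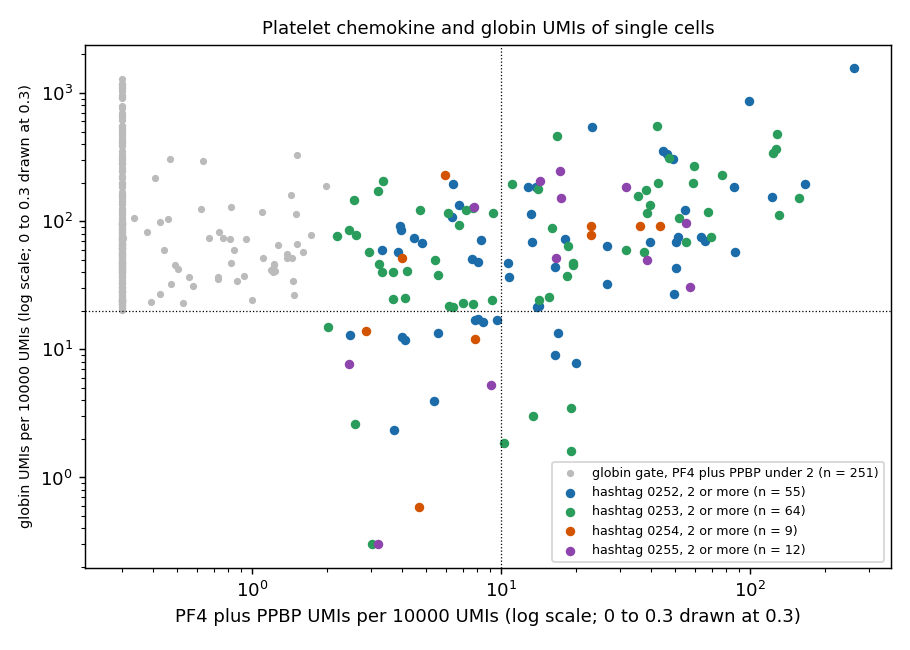
Summed *PF4* and *PPBP* UMIs per 10000 (x axis) and globin UMIs per 10000 (y axis) of single cells, both on log scales with values under 0.3 drawn at 0.3. Colored points are cells with 2 or more *PF4* and *PPBP* UMIs by hashtag, gray points globin-gate cells with fewer, and dotted lines mark the limits of 10 and 20; most cells to the right of 10 lie above 20.

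Members were next compared between hashtags, each against the other 3 pooled. Hashtags 0252 and 0253 had the higher levels of all 8 measured members. *PPBP* had 84.3 CPM in hashtag 0252 (81.5 to 87.2), 83.7 in 0253 (80.9 to 86.7), 13.3 in 0254 (12.1 to 14.5) and 18.9 in 0255 (17.3 to 20.6). *TUBB1* had 13.7, 14.04, 4.84 and 2.91 CPM in the same order, *ITGB3* 8.56, 9.05, 2.51 and 2.10, *GP1BA* 11.1, 12.2, 3.83 and 4.42, and *GP9* 38.3, 37.2, 17.4 and 12.2. *PLEK* had 166, 174, 89.9 and 85.2 CPM. *ITGA2B* differed least, with 91.5, 81.9, 71.9 and 49.8 CPM. *PF4* had 1.53, 0.676, 0.144 and 0.280 CPM, from 62, 26, 5 and 8 UMIs, and its intervals in 0253 and 0255 overlapped. Without an added CPM, the highest hashtag exceeded the lowest 10.6-fold in *PF4* (3.50 to 42.0), 6.36-fold in *PPBP*, 4.82-fold in *TUBB1*, 4.30-fold in *ITGB3*, 3.19-fold in *GP1BA*, 3.15-fold in *GP9*, 2.04-fold in *PLEK* and 1.84-fold in *ITGA2B*. Without a limit on UMIs or genes the values were 45.4-fold for *PF4* and 11.1-fold for *PPBP*. At a mitochondrial limit of 10%, which left 736 cells, they were 26.9-fold for *PPBP* (10.9 to 82.9) and 6.30-fold for *GP9* (2.88 to 15.2). Only 8 of these 736 cells were PF4/PPBP-high. Over all cells kept, the variance of the counts per cell was 145 times the mean for *PPBP* and 8.89 times for *PF4*. The intervals of these levels and ratios treat UMIs as independent and are thus too narrow.

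By the limit of 2-fold against the other hashtags pooled, 5 of 8 members differed in at least 1 hashtag. For hashtags 0252, 0253, 0254 and 0255, the other hashtags pooled had 0.384, 0.724, 0.894 and 0.819 CPM of *PF4*. With 1 CPM added, *PF4* could thus not be called lower in any hashtag, whatever its count. *PPBP* was higher in hashtag 0252 (ratio 2.01), where 0.104% of all genes were higher and 0.474% lower, and no member passed in 0253, where 0.252% were higher and 0.237% lower. In 0253 the ratio of *PPBP* was 1.95, just under the limit. A single cell of 0252 held 524 of its 3407 *PPBP* UMIs, and the ratio without this cell was not computed. The call in 0252 is therefore not read as a difference from 0253. In hashtag 0254, 4 of 8 members were lower, *PPBP* (0.210), *ITGB3* (0.437), *GP1BA* (0.451) and *TUBB1* (0.488), against 0.393% of all genes, and none was higher, against 0.0593%. In hashtag 0255 it was again 4 of 8, *PPBP* (0.314), *TUBB1* (0.323), *ITGB3* (0.394) and *GP9* (0.405), against 0.638% of all genes lower and 0.512% higher. Since the hashtags are compared with one another, these counts are not independent. Each hashtag is 1 pool of 3 wells, so the spread between wells of a condition is unknown.

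The numbers of cells differed in the same direction. PF4/PPBP-high cells were 33 in hashtag 0252 (1.54%, 1.07 to 2.16%), 35 in 0253 (1.75%, 1.22 to 2.43%), 4 in 0254 (0.217%, 0.0590 to 0.554%) and 8 in 0255 (0.509%, 0.220 to 1.001%). Cells with 10 or more summed UMIs per 10000 of the 11 other platelet genes made up 7.68% (6.58 to 8.89%), 7.21% (6.12 to 8.44%), 2.06% (1.46 to 2.81%) and 1.66% (1.08 to 2.42%). One stage earlier, at 3 to under 10, the shares were 12.8, 12.4, 12.5 and 10.3%, and their intervals overlapped. The globin gate held 5.66, 6.81, 3.79 and 2.55% of the cells. By cell share, *ITGA2B* did not follow its level, since a UMI was found in 42.5, 42.0, 47.4 and 39.1% of cells, most often in hashtag 0254. Outside all gates, the shares with *ITGA2B* were 32.5, 30.8, 41.1 and 34.6% of the cells kept.

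Within the last stage of platelet genes the hashtags were much closer. The genes that set this stage include *MMRN1* and *SELP*, which are among those most like the members in level. Closer levels can thus follow from the choice of cells, and are given as a description only. *ITGA2B* had 431 (409 to 454), 417 (393 to 442), 431 (385 to 481) and 361 CPM (307 to 421) in hashtags 0252, 0253, 0254 and 0255, and *TUBB1* had 139, 159, 163 and 128 CPM. *ITGB3* had 81.1, 97.6, 84.9 and 89.7 CPM, *GP9* 282, 340, 296 and 325 CPM and *PLEK* 1060, 1106, 1086 and 1294 CPM. By level, *PPBP* remained lower in hashtag 0254, at 484 CPM (435 to 536) against 952, 1057 and 1023 CPM. *GP1BA* was highest in 0255, at 157 CPM (122 to 198) against 90.3, 104 and 75.4 CPM. These values come from 164, 144, 38 and 26 cells, and the Poisson intervals leave out the spread between cells. By share of cells after thinning, *PPBP* in 0254 (37.8%) lay between 0252 (33.95%) and 0253 (44.8%). *GP1BA* was then highest in 0254, at 43.2% against 36% in 0255. PF4/PPBP-high cells made up 10.5% of this stage in 0254 (2.94 to 24.8%), and this interval overlapped those of the other hashtags. The differences in level of *PPBP* and *GP1BA* are therefore not read as established. Some members already differed at 3 to under 10, where *PLEK* had 172, 164, 63.8 and 74.9 CPM and *GP1BA* 18.5, 24.1, 6.59 and 7.60 CPM. In CD34-positive cells without *PF4* or *PPBP*, *ITGA2B* had 111, 117, 88.0 and 57.8 CPM and *GP9* 32.5, 31.04, 21.1 and 11.1 CPM.

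**Figure D5:**
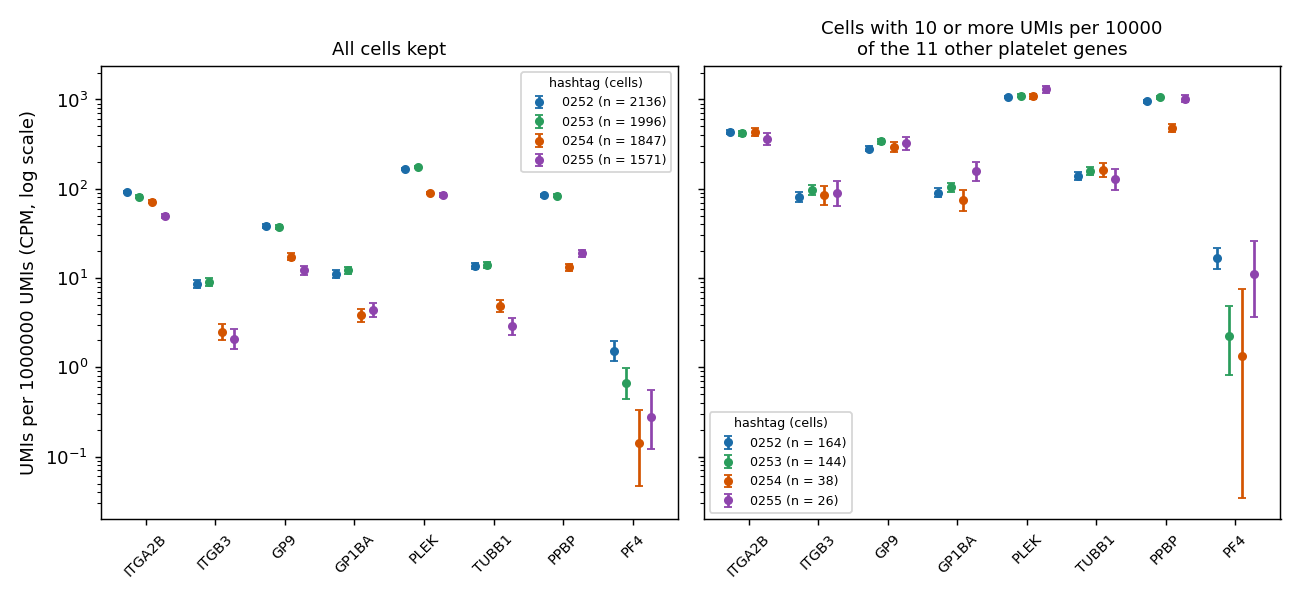
Levels of the 8 measured members (x axis) by hashtag, as CPM on a log scale (y axis), in all cells kept (left) and in cells with 10 or more UMIs per 10000 of the 11 other platelet genes (right). Points are summed levels, bars exact Poisson 95% intervals and n the cells; on the left hashtags 0252 and 0253 lie above the others, while on the right the hashtags differ less for most members, with *PPBP* of hashtag 0254 at 484 CPM.

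Of 85 other genes of megakaryocytes and platelets, listed by role, 76 had at least 100 UMIs. Among those that did not were *GP5*, the fourth subunit associated with GPIb-IX, with 26 UMIs, and *VWF* with 63. In PF4/PPBP-high cells, 59 were higher and 3 lower by at least 2-fold than in CD34-positive cells without *PF4* or *PPBP* (7.41 and 17.7% of all genes), with a median log2 ratio of 1.96 against -0.31 over all genes. All 12 tested genes of the cytoskeleton and proplatelets were higher, led by *DNM3* (21.9 against 0.668 CPM, ratio 13.7) and *SDPR* (371 against 38.7, 9.39), with *TPM1* (333 against 140, 2.38) at the end. Among receptors of agonists and their regulators 8 of 9 were higher, with *TREML1* (48.6 against 0.484 CPM, ratio 33.4) and the inhibitory receptor *C6orf25* (133 against 6.44, 18.03) at the top. Of adhesion receptors and partners 7 of 10 were higher, led by *CLEC1B*, the podoplanin receptor (216 against 0.568 CPM, 139), and the tetraspanin *CD9* (217 against 8.81, 22.2), and *JAM3* was lower (0.289).

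Granule cargo and transport had 10 of 16 genes higher, led by coagulation factor XIII (*F13A1*, 189 against 0.417 CPM, ratio 134) and thrombospondin (*THBS1*, 800 against 19.2, 39.6). The monoamine transporter *SLC18A2* had 6.34 against 9.45 CPM (0.703). In signalling 15 of 17 were higher, led by the guanylate cyclase subunit *GUCY1B3* (68.4 against 3.76 CPM, 14.6) and *NRGN* (568 against 43.98, 12.7), and *PLCG2* had 24.7 against 25.5 CPM (0.967). Of the transcription factors 7 of 12 were higher, with *GFI1B* (202 against 34.9 CPM, 5.66) and *TAL1* (214 against 54.0, 3.90) at the top, and *GATA2* and *IKZF2* were lower. *GATA2*, a factor of early progenitors, was at 39.5 against 156 CPM (0.257), and *IKZF2* at 2.82 against 25.7 CPM (0.143). *GATA2* was chosen for mention after its value was seen. Outside all gates, with 7 PF4/PPBP-high cells, 53 of the 76 genes were higher and 3 lower, against 12.6 and 30.2% of all genes. Compared with globin-gate cells without *PF4* or *PPBP*, 46 were higher and 2 lower, against 6.41 and 8.80% of all genes.

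Over 19 groups of cells made by hashtag and *PF4* plus *PPBP* stage, the genes outside the members with the most similar levels (mean Pearson r of log2(CPM + 1) with the 8 measured members) were *MYLK* (0.941), *CXCL3* (0.940), *MMRN1* (0.934), *LGALSL* and *TSPAN32* (both 0.933), *GJA4* (0.932), and *MED12L*, *SELP*, *TMEM40* and *FERMT3* (all 0.930). Among the members themselves, the mean r was 0.938 for *ITGB3*, 0.934 for *GP9* and 0.693 for *PF4*, whose UMIs are few. The groups share 1 library and are set by *PF4* and *PPBP*, so these values describe likeness only.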

How the data were processed

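Droplet-based single-cell RNA-seq (10x 3′ v3.1) was made of nonadherent cells of day 5 of EHT. Per the labels, Cell Ranger 6.0.1 and the hg19 build were used. The deposited values are raw UMI counts of each gene in each barcode, not normalized, and every barcode has a hashtag call. The second library, of hashtag oligonucleotides, shares the barcodes of the first. A 3′ count tallies molecules near the transcript end, so that reads shared by overlapping or near-identical genes can be lost.

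Cells with 1 hashtag call and at most 36000 UMIs, 6000 genes and 18% mitochondrial UMIs were kept (508 to 35955 UMIs each). Doublets were left to the deposited calls. Scrublet (scanpy 1.11.5, expected rate 6%) called 63 of the cells kept doublets and was used only as an alternative. Python 3.11.15, numpy 2.4.6, scipy 1.17.1, pandas 2.3.3, biopython 1.88 and matplotlib 3.10.9 were used. Thinning to 5000 UMIs used seed 1 and was drawn anew for some sets of cells, so shares of the same cells can differ between passages. Ratios used a pseudocount of 1 CPM over genes with at least 100 UMIs, and were tested on simulated data.

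With 1 library, no test between groups was possible. The members and gene lists were chosen with earlier results of these data known. Genes named are the 9 members, *CD34*, the gate genes, in each role of the list the 2 largest and the smallest ratio, and the 10 genes most like the members, with the 11 genes of the second axis. *PF4V1*, *SEPT5*, *GP5*, *VWF*, *KLF1*, *ALAS2* and *GATA2* fall outside this rule and were chosen with values known. Gene positions are from GENCODE for hg19 and promoters from RefSeq. *PF4*, *ITGB3* and *GP1BA* promoters are not shown. Some genes that the naming rule covers are not reported here.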

Additional observations from a re-analysis of the deposited data

Results flagged for a closer look

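PF4/PPBP-high cells were also found among barcodes that the limits or the hashtag calls removed. Of 397 barcodes with 1 hashtag above the limit on UMIs or genes, 30 were PF4/PPBP-high, or 7.56% (5.16 to 10.6%), and 24 of the 30 lay in the globin gate. Their median depth was 39736 UMIs. Among 541 barcodes above the mitochondrial limit only, 7 were PF4/PPBP-high, or 1.29% (0.522 to 2.65%). Hashtag doublets held 43 of 1339, or 3.21% (2.33 to 4.30%), with 34 in the globin gate. The shares above the limit on UMIs or genes and among hashtag doublets are above the 1.06% of the cells kept beyond counting error. A hashtag doublet holds more than 1 cell, however, so its share is not of the same unit as that of the cells kept. Among 809 hashtag-negative barcodes within the limits, 1 was PF4/PPBP-high (0.124%).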

How the results depend on the processing

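No paired analysis was possible because the series has 1 library and no replicates. The share of PF4/PPBP-high cells, 1.06%, became 1.38% without a limit on UMIs or genes, 0.649% with stage limits multiplied by 2, 1.39% among cells outside the gates other than globin and 0.135% outside all gates. The ratio between the hashtags with the highest and lowest share, 8.10 (2.21 to 41.2), ranged from 4.86 to 9.83 over the alternatives that gave one. The intervals of these ratios were wide, such as 1.18 to 27.2 for the ratio of 4.86. At a mitochondrial limit of 10% and outside all gates, a hashtag without such cells left no ratio. The 5 members that differed by hashtag became 2 at a mitochondrial limit of 10% and 8 at a limit of 1.5-fold. The 5 members called early outside all gates, by point value only, became 0 with globin-gate cells kept, 0 with all cells kept, 0 by the 11 other platelet genes, and 3 without cells that had a C1Q UMI. With stages of 10 or more joined, chosen after seeing the data, the count was 0 with globin-gate cells kept and 2 within the globin gate alone. At a mitochondrial limit of 10%, no stage above 0 held 30 cells. The count of other platelet genes that were higher, 53, was between 53 and 61, except for 46 of 61 tested genes at a mitochondrial limit of 10%, where 1 PF4/PPBP-high cell was left outside the gates. The 3 that were lower became 6 at that limit, from this 1 cell, 1 by the 11 other platelet genes, 6 without C1Q cells and 5 at 1.5-fold. In the setting by the 11 other platelet genes (55 higher), these 11 chose the cells and are also among the genes tested. Its counts are therefore no check on those 11 genes. With stage limits multiplied by 2, no PF4/PPBP-high cell was left outside the gates. *PF4*, with 101 UMIs, is the member whose depth limits it most.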
